A study of Castanea mollissima with 18 samples.

Results

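Somatic embryos are embryo-like bodies that arise in tissue culture without fertilisation, from cells of the plant body or from other embryos. In plants they pass through stages named for their shape, from globular to heart, torpedo and cotyledonary. Early stages are known for cell division and patterning, and late stages for the build-up of storage protein, starch and oil and for preparation for drying. Gene expression therefore differs widely between stages, and cultures often hold several stages side by side.

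In Chinese chestnut (Castanea mollissima), 6 RNA sequencing libraries were compared, each labelled somatic embryo with a number: libraries 2, 3 and 11 against libraries 1, 4 and 12. They are 6 of the 18 libraries of the series, which holds 12 somatic embryo and 6 callus libraries, callus being unorganised dividing tissue in culture. Both trios carry the same label apart from the number: no line, genotype, stage, treatment or day of culture is given for either, and nothing says whether libraries came from separate cultures. The trios were chosen by average-linkage clustering on correlations between the same expression values, which parted the series into 6 sets of 3. All differences between the trios are therefore given as descriptions, with no test, and mean ± SD gives the spread within a trio (n = 3). The values are FPKM, fragments scaled to gene length and to the mapped fragments of the library, as deposited. Genes were compared if 3 or more of these 6 libraries had at least 1 FPKM, as was true of 19284 of 33991 gene IDs. Levels are on the log2(FPKM + 1) scale, on which a difference of 1 is called 2-fold here. The IDs carry no gene names, so no function is given to any gene, and the labelled tissue was not checked against marker genes. In RNA from whole tissue, fewer cells of a type and less RNA per cell cannot be told apart.

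The libraries were alike in the number of genes found. Libraries 2, 3 and 11 held 18555, 18965 and 18742 genes at 1 FPKM or more, and libraries 1, 4 and 12 held 19029, 19222 and 19007, so the first trio lay lower without overlap. The summed FPKM was 1002825, 957919 and 1003215 in libraries 2, 3 and 11 and 970461, 1067585 and 1020623 in libraries 1, 4 and 12, with library 3 lowest and library 4 highest of the 6. Read depth is unknown, because the values carry no counts.

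Each trio was a close pair with the other library at a distance. Libraries 2 and 11 had a Spearman correlation of 0.986 across the tested genes, and libraries 1 and 12 also had 0.986. Library 3 had correlations of 0.945 and 0.943 with libraries 2 and 11. Its next values lay close below these, 0.920 to 0.923 with somatic embryos 5, 6 and 7 and 0.918 with both library 1 and library 4. Library 4 had 0.920 with library 12, 0.909 with library 1 and 0.918 with library 3, so one of its trio mates was no closer to it than a library of the other trio. The points of these correlations are genes, not samples, and the clustering used such values.

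Counts of genes gave the same picture. Libraries 2 and 11 were at least 2-fold apart at 315 genes and libraries 1 and 12 at 153 genes. Library 3 was 2-fold apart from libraries 2 and 11 at 2418 and 2311 genes, from library 1 at 2801 genes, from library 4 at 3257 genes and from library 12 at 3513 genes. Library 4 was 2-fold apart from library 12 at 2640 genes and from library 1 at 3386 genes, which is more than parted it from library 3. Library 3 thus lay between the pairs. Library 4 did not by this count: it was 2-fold apart from libraries 2 and 11 at 5439 and 5725 genes, where library 1 was at 5331 and 5145 and library 12 at 5522 and 5589. The median gene had an SD of 0.26 (log2 scale) within libraries 2, 3 and 11 and of 0.27 within libraries 1, 4 and 12, against 0.12 within the pair 2 and 11 and 0.13 within the pair 1 and 12.

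**Figure D1:**
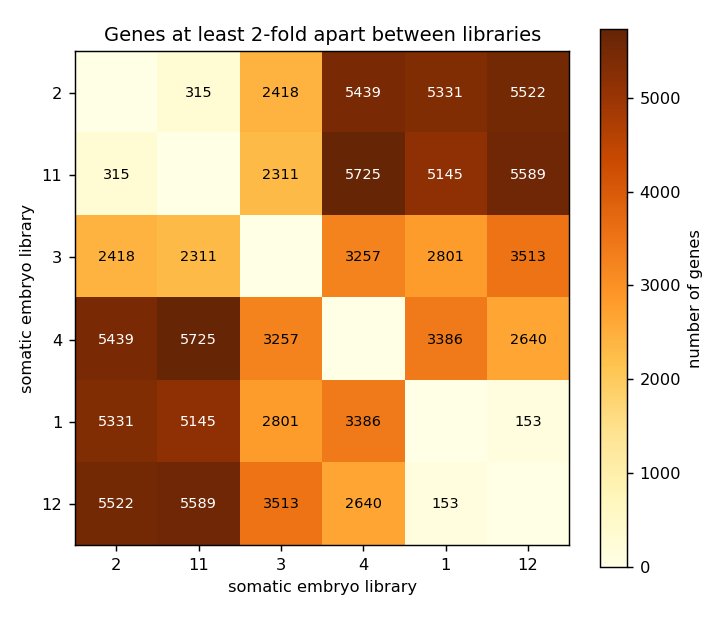
Number of the 19284 tested genes at least 2-fold apart (a difference of 1 on log2(FPKM + 1)) between each 2 of the 6 somatic embryo libraries, in the order 2, 11, 3, 4, 1, 12 on both axes; darker cells hold more genes. Libraries 2 and 11 (315 genes) and 1 and 12 (153 genes) form close pairs, library 3 lies between the pairs, and library 4 is about as far from libraries 2 and 11 (5439 and 5725 genes) as libraries 1 and 12 are.

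Between the trios, 2956 genes (15.3% of those tested) had trio means at least 2-fold apart with no overlap between the libraries of the trios. Of these, 1346 (6.98%) were higher in libraries 2, 3 and 11 and 1610 (8.35%) were lower there. Without library 3 the count was 4443, with 1747 higher and 2696 lower, and without libraries 3 and 4 it was 4587. The larger differences lay mostly on the higher side: 422 higher and 111 lower genes differed by at least 2 on the log2 scale, 120 higher and 2 lower genes by at least 3, and 32 higher and 0 lower genes by at least 4. The median difference was 1.57 among the higher and -1.26 among the lower genes. The median over all tested genes was not 0 but -0.23, so a typical gene stood lower in libraries 2, 3 and 11 on FPKM as deposited. Median-of-ratios scaling, which sets typical genes equal, moved that median to 0.01. With it 1913 genes were higher and 833 lower, so 69.7% of the differing genes were higher against 45.5% as deposited. The split into higher and lower genes therefore depended on the scale. The scaling multiplies all values of a library by a single factor, so which genes are gained or lost follows from its construction; its 833 lower genes are all among the 1610. Without a limit on the fold, 2620 genes (13.6%) were higher and 6306 (32.7%) lower in libraries 2, 3 and 11 with no overlap, and 4016 and 4147 after median-of-ratios scaling. Genes whose nearest libraries of the trios were still 2-fold apart numbered 362 higher (1.88%) and 198 lower (1.03%).

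The share of genes higher in libraries 2, 3 and 11 rose with abundance. The 1 added to FPKM shrinks log2 differences between low values, so fewer genes with low means can reach the limit. The mean behind the classes also holds the trios themselves. Most of the higher genes were not among the most abundant. Of the 1346, 138 had a mean of 200 FPKM or more over the 6 libraries and 660 a mean of 5 to 50 FPKM. Among 934 genes with a mean of 200 FPKM or more over the 6 libraries, 14.8% were higher and 5.46% lower, whereas among 4598 genes with a mean under 5 FPKM 4.72% were higher and 7.24% lower. After median-of-ratios scaling the shares were 19.1% and 1.92% in the highest class and 5.86% and 4.52% in the lowest, so in the lowest class the larger side turned. It also turned among the 10613 genes with a mean of 5 to 50 FPKM, where 6.22% were higher and 9.49% lower as deposited, and 9.34% and 4.93% after scaling. Among the 3139 genes at 50 to 200 FPKM, 10.5% were higher and 6.98% lower as deposited, and 15.2% and 2.79% after scaling. The 1346 higher genes held 21.9%, 13.4% and 20.3% of the summed FPKM of libraries 2, 3 and 11, against 4.52%, 6.17% and 4.04% in libraries 1, 4 and 12. Library 3 held less than its trio mates, and library 4 more than its own. The 1610 lower genes held 3.2%, 5.35% and 3.38% of libraries 2, 3 and 11, against 9.49%, 9.27% and 10.1% of libraries 1, 4 and 12. FPKM is a share of a library, so genes that take up a larger part of it lower all the others; how much of the shift of -0.23 comes from this was not tested.

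Genes under 1 FPKM in all libraries of a trio were counted among the differing genes. Of the 1346 higher genes, 109 were under 1 FPKM in all of libraries 1, 4 and 12, and 4 of these reached 5 FPKM in all of libraries 2, 3 and 11. Of the 1610 lower genes, 59 were under 1 FPKM in all of libraries 2, 3 and 11, and 0 of these reached 5 FPKM in all of libraries 1, 4 and 12. No differing gene was listed at 0 in all 3 libraries of a trio. The filter let a gene in through a single trio, and these genes passed it only through the trio where they were high. The share of all tested genes under 1 FPKM throughout a trio was not counted. These counts are therefore not set against each other, and whether they are few or many is not read from them.

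The gene with the largest positive difference was Cm11G00709.gene, which had 642 FPKM, 178 FPKM and 564 FPKM in libraries 2, 3 and 11, against 5.19, 13.0 and 4.18 FPKM in libraries 1, 4 and 12. Libraries 3 and 4 were the nearest to each other across the gap. The trio means were 461 ± 249 and 7.46 ± 4.83 FPKM (SD, n = 3 each), a difference of 5.71 on the log2 scale. Outside the trios it stood at 3.37 to 3.72 FPKM in somatic embryos 5, 6 and 7 and at no more than 0.26 FPKM in somatic embryos 8, 9 and 10, and callus reached at most 0.07 FPKM.

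Cm01G03703.gene came next, with 143, 133 and 175 FPKM in libraries 2, 3 and 11, against 0.89, 12.9 and 0.30 FPKM in libraries 1, 4 and 12. Here library 3 stood with its trio, and library 4 lay between library 3 and libraries 1 and 12. The trio means were 150 ± 22.1 and 4.70 ± 7.11 FPKM (SD, n = 3 each), a difference of 5.53 on the log2 scale. In the other libraries the gene did not pass 8.69 FPKM, its level in somatic embryo 5.

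The gene with the largest negative difference was Cm01G00785.gene, at 3.02, 30.3 and 7.04 FPKM in libraries 2, 3 and 11, against 98.1, 103 and 135 FPKM in libraries 1, 4 and 12. Library 3 stood well above its trio mates, and library 4 stood with its own. The trio means were 13.4 ± 14.7 and 112 ± 20.1 FPKM (SD, n = 3 each), a difference of -3.48 on the log2 scale. All 12 libraries outside the trios lay between 4.11 and 10.4 FPKM, so libraries 1, 4 and 12, with library 3 behind them, were the high ones of the series in this gene.

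Cm07G01544.gene had 1.68, 8.62 and 2.41 FPKM in libraries 2, 3 and 11, against 62.6, 22.9 and 74.9 FPKM in libraries 1, 4 and 12. Libraries 3 and 4 again faced each other across the gap. The trio means were 4.24 ± 3.81 and 53.4 ± 27.2 FPKM (SD, n = 3 each), a difference of -3.45 on the log2 scale. This gene was higher still in callus, at 210 to 230 FPKM, and stood at 36.1 to 37.6 FPKM in somatic embryos 5, 6 and 7 and at 4.45 to 5.27 FPKM in somatic embryos 8, 9 and 10.

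**Figure D2:**
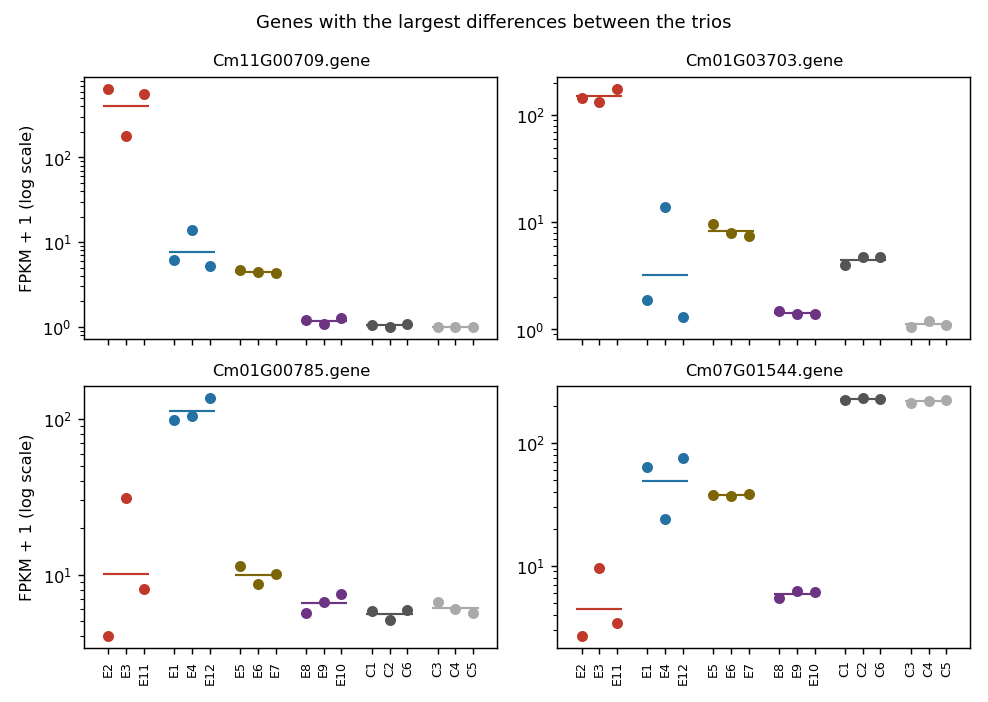
FPKM + 1 on a log axis of the 2 genes highest (top) and the 2 genes lowest (bottom) in somatic embryo (E) 2, 3 and 11 relative to 1, 4 and 12, in all 18 libraries; points are libraries, lines are means on the log scale within a set of 3, and C is callus. Libraries 3 and 4 are often the members of their trios nearest to the other trio, as in Cm11G00709.gene at 178 FPKM and 13.0 FPKM.

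Library 3 was most often the member of its trio nearest to the other. Among the 1346 higher genes it was the lowest of libraries 2, 3 and 11 in 74.5%, against 11.3% for library 2 and 14% for library 11. Among the 1610 lower genes it was the highest of the 3 in 83.7%. For library 4 this was less one-sided. It was the highest of libraries 1, 4 and 12 in 60.2% of the higher genes, and the lowest in 43.5% of the lower genes, where library 1 was lowest in 46.6%.

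To place each library, a line was drawn in the space of all tested genes between the mean of libraries 2, 3 and 11 (position 1) and the mean of libraries 1, 4 and 12 (position 0), leaving the placed library out of its own mean. Libraries 2, 3 and 11 stood at 1.17, 0.54 and 1.12, and libraries 1, 4 and 12 at 0.09, 0.38 and -0.07. Library 3 thus stood near the midpoint of the line and library 4 between library 3 and its own mates. Somatic embryos 5, 6 and 7 also stood near the midpoint, at 0.50 to 0.55. They lay further off the line than library 3, at root-mean-square distances of 0.73 to 0.74 log2 units against 0.47. Library 4 lay 0.71 off the line, more than the other 5 of the 6 libraries, which ranged from 0.39 to 0.48. Somatic embryos 8, 9 and 10 stood at 0.38 to 0.49 and callus at 0.23 to 0.28. Both lay at larger distances, of 0.91 to 1.01 and 1.06 to 1.29. Each of the 6 libraries has its own line here, because it is left out of a mean. On the line between the means of the close pairs, which is the same for libraries 3 and 4, they stood at 0.61 and 0.29. Somatic embryos 5, 6 and 7 stood at 0.45 to 0.49 on it, somatic embryos 8, 9 and 10 at 0.32 to 0.43 and callus at 0.18 to 0.22. The position of library 4 was therefore not particular to it. Library 3 was there past the midpoint, on the side of its own trio.

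**Figure D3:**
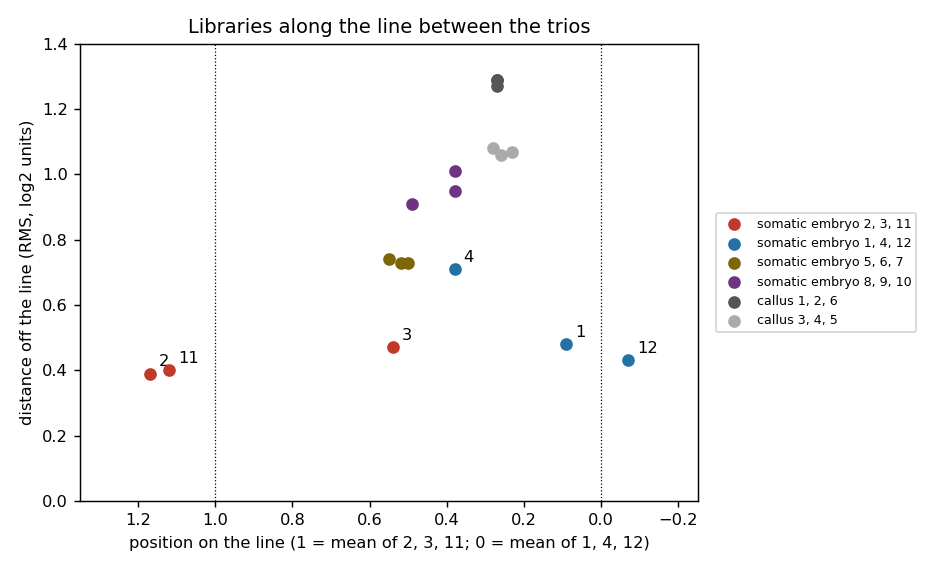
Position of each of the 18 libraries on the line between the trio means (horizontal axis, 1 at the mean of somatic embryo 2, 3 and 11 and 0 at the mean of 1, 4 and 12) and its root-mean-square distance off that line in log2 units (vertical axis); numbers name the 6 libraries compared. Libraries 2 and 11 lie beyond 1, libraries 1 and 12 lie near 0, and libraries 3 and 4 stand at 0.54 and 0.38, library 4 further off the line.

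Libraries 3 and 4 were also placed at genes that part the close pairs. The limits for these genes do not use their values, but the filter on low genes does. A gene under 1 FPKM in both libraries of a pair passed it only if library 3 or 4 reached 1 FPKM. Where they stand at such genes thus follows in part from the filter. With libraries 3 and 4 left out of the filter too, the pairs differed at 4587 genes, 1913 higher and 2674 lower. Such genes are extreme in the pairs, so other libraries tend to fall between by that choice. Libraries 2 and 11 differed from libraries 1 and 12 at least 2-fold and without overlap at 5129 genes (26.6% of those tested), 2189 (11.4%) higher and 2940 (15.2%) lower in libraries 2 and 11. Library 3 was nearer libraries 2 and 11 at 3040 of these genes (59.3%) and nearer libraries 1 and 12 at 2089 (40.7%). At most of them, 3759 genes (73.3%), it lay in the gap between the pairs. Library 4 was nearer libraries 1 and 12 at 3681 genes (71.8%) and lay in the gap at 2688 (52.4%). It reached the level of libraries 1 and 12 or went past it at 1894 (36.9%). After median-of-ratios scaling 2989 genes were higher and 1512 lower in libraries 2 and 11, so the larger side turned. Library 3 was then nearer libraries 2 and 11 at 60.1% and library 4 nearer libraries 1 and 12 at 69.8%.

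The higher and the lower genes gave different positions on FPKM as deposited. With 1 for the mean of libraries 2 and 11 and 0 for that of libraries 1 and 12, the median position of library 3 was 0.65 at genes higher in libraries 2 and 11 and 0.53 at genes lower there. For library 4 the medians were 0.32 and 0.16. Both libraries stood closer to libraries 2 and 11 at the higher genes, and the middle 50% of genes ran from 0.41 to 0.90 for library 3 and from -0.02 to 0.69 for library 4. The scatter around the median was wide for library 4, so a single position describes it less well than library 3. At 1970 of the 5129 genes (38.4%) each of the libraries 3 and 4 stood nearer its own trio. At 1711 (33.4%) both stood nearer libraries 1 and 12, at 1070 (20.9%) both nearer libraries 2 and 11, and at 378 (7.37%) each stood nearer the other trio.

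**Figure D4:**
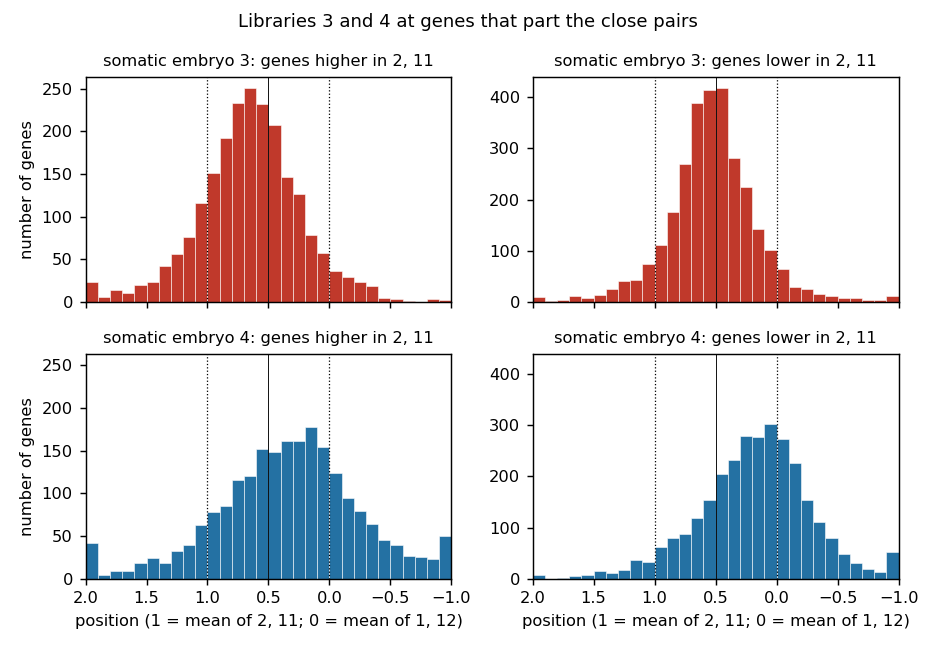
Number of genes by the position of somatic embryo 3 (top) and 4 (bottom) between the close pairs, for the 2189 genes higher (left) and the 2940 lower (right) in somatic embryo 2 and 11; position 1 is the mean of 2 and 11, position 0 the mean of 1 and 12, the solid line marks 0.5, and the outermost bars also hold all genes beyond the axis. Library 3 peaks between the pairs, with medians of 0.65 and 0.53, and library 4 spreads wider around 0.32 and 0.16.

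Library 3 stood 2-fold above both of its mates at 846 genes (4.39%) and 2-fold below both at 737 (3.82%). Library 4 stood above both of its mates at 1217 genes (6.31%) and below both at 911 (4.72%). The close pairs had few such genes: the counts in both directions together were 108 for library 2 (0.56%), 141 for library 11 (0.731%), 59 for library 1 (0.306%) and 60 for library 12 (0.311%). After median-of-ratios scaling library 3 stood above its mates at 601 genes and below at 1011, so the larger side turned, and library 4 stood above at 1292 and below at 725.

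Where library 3 or library 4 left its mates, the other pair usually lay on the same side. In 85.8% of the 846 genes where library 3 was above its mates, the mean of libraries 1 and 12 was above them too, against 65.8% of all tested genes. In 93.2% of the 737 genes where it was below them, that mean was below, against 34.2% of all tested genes. For library 4, the mean of libraries 2 and 11 was above its mates in 79.8% of the 1217 genes where it was above them, against 34.2%. That mean was below them in 73.3% of the 911 genes where library 4 was below, against 65.8%. Library 4 stood 2-fold above the mean of libraries 2 and 11 in 70.8% of the 846 genes, against 16.8% of all tested genes. It stood 2-fold below that mean in 85.1% of the 737, against 11.8%. For library 4 above its own mates, library 3 also stood 2-fold above the mean of libraries 1 and 12 in 66.2% of the 1217 genes, against 9.32% of all tested genes. Below, it did so in 31.8% of the 911 genes, against 6.5%. The shared mates enter both sides of these shares, so they are not independent. Each distance is also taken from the mates of the other library, so it holds the difference between the pairs as well.

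Some genes set libraries 3 and 4 apart from both pairs. Library 3 was 2-fold above all of libraries 2, 11, 1 and 12 at 193 genes (1% of those tested). It was 2-fold below all of them at 89 (0.462%). Library 4 was above all of these at 459 genes (2.38%) and below all at 385 (2%). At 95 genes (0.493%) both libraries were above and at 44 (0.228%) both were below, while at 0 genes they went in opposite directions. Both departures are measured from the same 4 libraries. Across all tested genes, the difference of library 3 from libraries 2 and 11 and that of library 4 from libraries 1 and 12, which share no library, had a Pearson correlation of 0.09, on FPKM as deposited and after median-of-ratios scaling alike.

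The genes furthest above the mates of library 3 were Cm09G01386.gene and Cm11G01362.gene. Cm09G01386.gene had 99.3 FPKM in library 3 but 4.44 and 3.82 FPKM in libraries 2 and 11, and 24.0, 24.5 and 14.3 FPKM in libraries 1, 4 and 12. Library 3 was the highest of all 18 libraries in this gene, at 4.21 above the nearer mate on the log2 scale. Cm11G01362.gene had 54.0 FPKM in library 3 against 4.14 and 5.88 FPKM in libraries 2 and 11, and 74.9 FPKM in library 4 against 18.3 and 9.42 FPKM in libraries 1 and 12. Libraries 3 and 4 were here the highest of the series.

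The genes furthest below the mates of library 3 were Cm08G02350.gene and Cm01G00414.gene. Cm08G02350.gene had 4.36 FPKM in library 3 against 40.2 and 36.2 FPKM in libraries 2 and 11, with 0.79, 1.72 and 1.04 FPKM in libraries 1, 4 and 12. Cm01G00414.gene had 28.7 FPKM in library 3 against 180 FPKM and 202 FPKM in libraries 2 and 11, with 7.81, 0.09 and 4.70 FPKM in libraries 1, 4 and 12. In both genes library 3 stood between its mates and the other trio. Both were also high in somatic embryos 8, 9 and 10, at 18.9 to 22.5 FPKM and at 462 to 659 FPKM.

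The genes furthest above the mates of library 4 were Cm05G00838.gene and Cm05G02286.gene. Cm05G00838.gene had 131 FPKM in library 4 against 1.57 and 1.59 FPKM in libraries 1 and 12, a gap of 5.67 on the log2 scale. Libraries 2, 3 and 11 had 209, 99.0 and 196 FPKM, so library 4 stood within the range of the other trio. Cm05G02286.gene had 205 FPKM in library 4 against 4.13 and 3.33 FPKM in libraries 1 and 12, with 230.1, 123 and 191 FPKM in libraries 2, 3 and 11. Here too library 4 stood inside the range of the other trio.

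The genes furthest below the mates of library 4 were Cm12G00621.gene and Cm02G02937.gene. Cm12G00621.gene had 1.71 FPKM in library 4 against 41.1 and 46.7 FPKM in libraries 1 and 12, and 396, 113 and 929 FPKM in libraries 2, 3 and 11. Libraries 3 and 4 were each the lowest of their trio. Cm02G02937.gene had 15.2 FPKM in library 4 against 183 and 334 FPKM in libraries 1 and 12, and 42.1, 12.1 and 88.5 FPKM in libraries 2, 3 and 11. Library 3 was again the lowest of its trio, and stood near library 4.

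The differing genes were next followed into the other libraries. They were chosen for being extreme in the trios, so medians of other libraries fall between the trios by that choice, and where those libraries stand cannot be read from it. The median level of the 1346 higher genes was 5.54, 5.01 and 5.48 on the log2(FPKM + 1) scale in libraries 2, 3 and 11, and 3.53, 3.72 and 3.44 in libraries 1, 4 and 12. Somatic embryos 5, 6 and 7 stood at 4.53 to 4.60, somatic embryos 8, 9 and 10 at 4.09 to 4.42 and callus at 4.04 to 4.16. The median level of the 1610 lower genes was 2.77, 3.45 and 2.86 in libraries 2, 3 and 11, and 4.39, 4.36 and 4.53 in libraries 1, 4 and 12, with all 12 other libraries at 3.62 to 3.89. The medians of the other libraries hide genes on both sides. Of the 1346 higher genes, somatic embryos 5, 6 and 7 reached the lowest of libraries 2, 3 and 11 in 36.3%, stayed at or under the highest of libraries 1, 4 and 12 in 31.1% and lay between in 32.5%. For somatic embryos 8, 9 and 10 these shares were 25.9%, 48.5% and 25.6%, for callus 1, 2 and 6 they were 21.3%, 54.3% and 24.4%, and for callus 3, 4 and 5 they were 21.7%, 51.7% and 26.6%. Of the 1610 lower genes, callus 1, 2 and 6 reached the lowest of libraries 1, 4 and 12 in 39.3% and stayed at or under the highest of libraries 2, 3 and 11 in 40.6%. For callus 3, 4 and 5 these shares were 39% and 31.8%, for somatic embryos 5, 6 and 7 they were 23.1% and 35.4%, and for somatic embryos 8, 9 and 10 they were 25.7% and 43.4%.

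**Figure D5:**
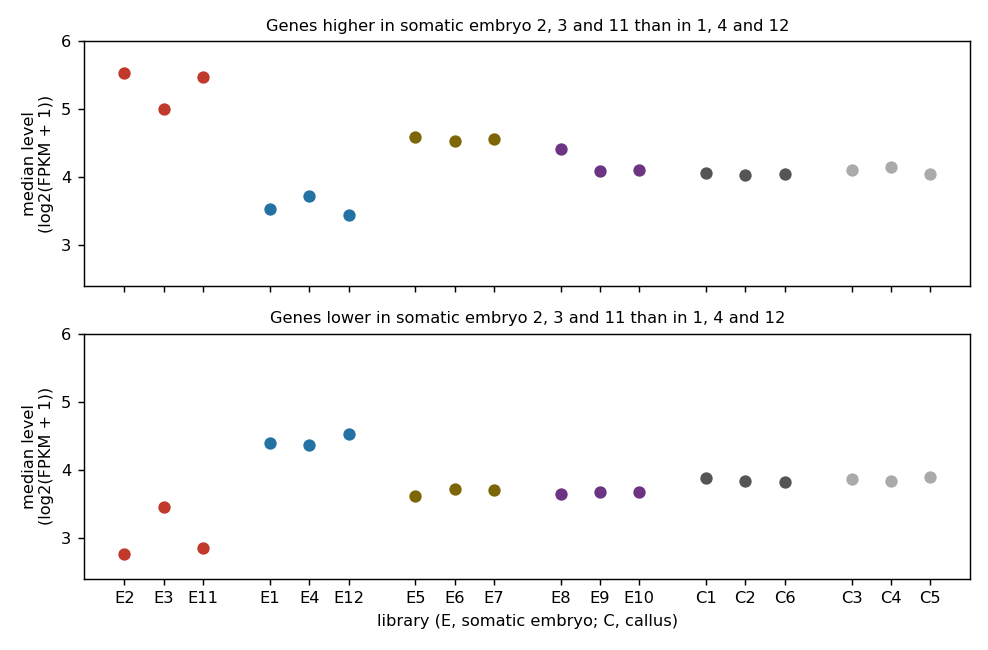
Median level (log2(FPKM + 1)) in each library of the 1346 genes higher (top) and the 1610 genes lower (bottom) in somatic embryo (E) 2, 3 and 11 than in 1, 4 and 12; C is callus, and colours mark sets of 3 libraries. The genes were chosen for the difference between the trios, so the other libraries fall between them by that choice; within the trios, library 3 (5.01 and 3.45) stands apart from libraries 2 and 11.

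Across the tested genes, the difference between the trios was only weakly correlated with those among the other libraries. It had a Pearson correlation of -0.09 with the difference of somatic embryos 8, 9 and 10 from 5, 6 and 7, of 0.19 with that of somatic embryos 5 to 10 from callus, and of -0.00 with that of callus 3, 4 and 5 from callus 1, 2 and 6. None of these contrasts shares a library with the trios. The value of -0.09 was small and unsteady: it was -0.18 without library 4, -0.14 without library 2, -0.06 without library 1, -0.04 without library 3 and -0.02 without library 12. Leaving out single libraries gave 0.15 to 0.21 in place of 0.19. With the same limits, 48.7% of the 1346 higher genes and 32.7% of the 1610 lower genes differed in either direction between somatic embryos 8, 9 and 10 and 5, 6 and 7, against 25.9% of all tested genes. In that contrast 33.1% of the 1346 higher genes were lower in 8, 9 and 10, against 15.1% of all tested genes, and 15.6% were higher, against 10.8%. Of the 1610 lower genes, 19.8% were lower and 13% higher in 8, 9 and 10, closer to those shares of all tested genes. Between somatic embryos 5 to 10 and callus, 14.7% of the 1346 were higher in somatic embryos, against 7.67% of all tested genes, and 4.16% were lower, against 6.89%. Between callus 3, 4 and 5 and callus 1, 2 and 6, 11.9% of the 1346 were higher in callus 3, 4 and 5, against 7.31%, and 6.98% were lower, against 5.1%. Of the 1610 lower genes, 16% were lower in somatic embryos 5 to 10 than in callus, against 6.89% of all tested genes, and 11.7% were higher, against 7.67%. In callus 3, 4 and 5 relative to callus 1, 2 and 6, 10.1% of the 1610 were higher and 6.83% lower, against 7.31% and 5.1%.

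By the same limits and among the same tested genes, the trios differed from somatic embryos 5, 6 and 7 at about as many genes as from each other. The tested genes passed the filter in the libraries of the trios alone. Genes found in other sets but not in the trios are therefore left out. The counts against other sets miss such genes, above all on the side lower in the trios, and the 2956 does not. Libraries 2, 3 and 11 differed from somatic embryos 5, 6 and 7 at 3097 genes (16.1%) and libraries 1, 4 and 12 at 3055 (15.8%), beside 2956 between the trios. From somatic embryos 8, 9 and 10 they differed at 4361 (22.6%) and 3902 (20.2%) genes. From callus 3, 4 and 5 they differed at 5387 (27.9%) and 4017 (20.8%), and from callus 1, 2 and 6 at 6832 (35.4%) and 5775 (29.9%). The counts of libraries 1, 4 and 12 were the smaller ones in each of these. In the order named, from somatic embryos 8, 9 and 10 on, libraries 2, 3 and 11 were lower at 2252, 2785 and 3419 genes. Libraries 1, 4 and 12 were lower at 1767, 1771 and 2464. The genes higher in the trios numbered 2109, 2602 and 3413, and 2135, 2246 and 3311. The median difference from the other sets ran from -0.26 to -0.16 for libraries 2, 3 and 11. For libraries 1, 4 and 12 it ran from -0.06 to 0.05. How much of the gap comes from this shift was not tested. A wider spread within a trio makes overlap more likely and lowers such counts, and both trios were spread by libraries 3 and 4.

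The differing genes were found under every prefix of the IDs, whose number runs from 0 to 12. The share higher in libraries 2, 3 and 11 ran from 5.11% (prefix Cm03G) to 8.02% (Cm05G), and the share lower from 6.27% (Cm00G) to 9.38% (Cm03G). Most genes with consecutive ID numbers did not differ alike, but the share that did was above that of all tested genes. Where a gene was higher, the next ID was higher in 14.2% of 875 cases, against 6.98% of all tested genes. Where a gene was lower, the next ID was lower in 17% of 1061 cases, against 8.35%. The longest runs of consecutive IDs held 4 genes in each direction. No genome or annotation was used, so the distance between such genes is not given.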

How the data were processed

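The authors deposited FPKM values per gene ID in a single table. Per the submitters' processing notes, reads were examined with FastQC 0.11.9, trimmed with Trimmomatic and aligned with STAR 2.7.10b. Per the labels' protocols, total RNA was made into directional Illumina libraries. Neither the genome build, the annotation nor the program behind the FPKM is named in the sources used here. Of 213 columns of samples, the 18 whose names open a sample's title entered the analysis, and 195 were not used here.

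Values were transformed to log2(FPKM + 1) for genes with at least 1 FPKM in 3 or more of the 6 libraries (Python 3.11.15, NumPy 2.4.6, pandas 2.3.3). A gene differed where the trio means were at least 1 apart on this scale and no library of a trio overlapped the other trio. No test was run, since the trios came from these values; the rule was checked on data made with known answers. Genes were named by rank: the 2 with the largest difference each way between the trios, and the 2 furthest above and below both trio mates of libraries 3 and 4. The trios, rules and lists were chosen with earlier results of these data known. The lists of known genes that had been planned were not run, because no ID has a name. Whole reads could not be recovered from low values: among genes at 0.5 to 1.5 FPKM in a pair of libraries, at most 11.7% of ratios lay within 0.02 (log2) of whole-number steps at the best offset, against medians of 7.48% to 7.66% over offsets. No 2 of the 6 libraries shared more than 0.342% of their values, so none was an exact copy and all were counted.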

Additional observations from a re-analysis of the deposited data

How the results depend on the processing

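The alternatives were a pseudocount of 0.1 or 0.01, no filter on low genes, a filter at a mean of 5 FPKM, a TPM scale, median-of-ratios scaling, other limits for a differing gene, and leaving out libraries. The 2956 differing genes (1346 higher, 1610 lower) became 8926 (2620 higher, 6306 lower) when no overlap alone was asked and 560 (362 higher, 198 lower) when the nearest libraries of the trios had to be 2-fold apart. Median-of-ratios scaling gave 833 lower genes, and on the TPM scale 1485 genes were higher and 1390 lower, so the larger side turned there too. Leaving out 1 library gave 2559 to 4443 genes, 1203 to 1884 of them higher and 1339 to 2696 lower. The most came without library 3 (4443) and the fewest without library 2. Without libraries 3 and 4 together 4587 genes differed, 1913 higher and 2674 lower. Fewer libraries then have to be clear of each other, but the filter asks for 1 FPKM in 3 of libraries 2, 11, 1 and 12. It thus drops genes found in 1 pair only, and 18126 genes were tested. With the filter on all 6 libraries the same pairs differed at 5129 genes. Genes at which library 3 was 2-fold from both mates numbered 1583, and 2411 with a pseudocount of 0.01. For library 4 they numbered 2128 and 3010, so the rise was not particular to library 3. A smaller pseudocount widens log2 differences between low values. Whether the genes gained are low ones was not tested. The correlation with the difference of somatic embryos 8, 9 and 10 from 5, 6 and 7 lay between -0.18 and -0.02 with single libraries left out, and the one with somatic embryos 5 to 10 minus callus between 0.15 and 0.21. The positions of libraries 3 and 4 and the spread within trios moved by less than the spread between libraries under all settings run for them, as did the named genes except Cm11G00709.gene (6.73) and Cm07G01544.gene (-4.52) without libraries 3 and 4; Cm01G03703.gene did not pass the filter there and has no value. No paired analysis was possible because the libraries of the trios share no replicate number. With no read depth, no counting limit can be given for low genes.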
